A study of Mus musculus with 8 samples.

Results

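The genes described here are 49 genes of the complement and coagulation systems of plasma, and their transcripts were followed in liver from mice of both sexes with and without Bcl6, a transcriptional repressor. Members were chosen by name, and a gene was measured by every array probe whose RefSeq transcript belongs to it. All 49 had a probe among the 56605 probes of the array. They divide into 25 complement genes, 21 genes of coagulation and fibrinolysis, and 3 plasma proteins of the cystatin family (Hrg, Ahsg and Fetub) that belong to neither. There were 8 arrays in 4 groups of 2: male wild type, male liver-specific Bcl-6 deficient, female wild type and female liver-specific Bcl-6 deficient, all from whole liver of animals aged 10 to 11 weeks. The labels give no strain and no driver of the liver-specific deletion, and they do not say whether the replicates were separate animals, so the p-values cover only the spread among these arrays, which may be technical. In whole liver, fewer cells of a type and less RNA per cell cannot be told apart.

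The liver makes most plasma complement and clotting proteins, chiefly in hepatocytes. Complement is a cascade of proteases that is started by antibody (the classical pathway), by sugars on microbes (the lectin pathway) or by spontaneous turnover of C3 (the alternative pathway). All routes cleave C3 and then C5, after which C6, C7, C8 and C9 assemble into a pore, the membrane attack complex. C8 itself is built from an alpha, a beta and a gamma chain, made from C8a, C8b and C8g. Clotting is a second cascade, in which factor VII with tissue factor activates factor X, and factor X with its cofactor factor V turns prothrombin (F2) into thrombin, which cuts fibrinogen (Fga, Fgb, Fgg) into fibrin.

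Levels are log2 signals relative to each array's 75th percentile, so 0 is the level of that percentile and a difference of 1 is a factor of 2. Between 33677 and 36459 of 59305 spots per array were well above background by the scanner's software, and 26510 genes and unnamed transcripts passed the filter on dim probes and were tested together with limma. Of the 49 genes 48 passed. The other, Cfd, encodes complement factor D, which is made mainly by fat cells. Both of its probes were well above background on the same 2 arrays, male wild type 1 and female knockout 1, and on no other. On the first Cfd probe these arrays read -2.92 and -2.67, and the other 6 arrays read between -7.33 and -6.15. Of 6 adipocyte markers, Adipoq and Plin1 did not pass the filter. Car3, which hepatocytes also express, made up 99.3% of the summed level of the other 4. Without it the sum of Lep, Cidec and Retn lay between 1.16 and 1.5 on all 8 arrays. A gene well above background only on male wild type 1 and female knockout 1 fails the filter, as Cfd did. The sum therefore cannot show whether adipocyte RNA was higher on those 2 arrays. The part of adipocytes in the Cfd values was not tested. The single probe for Bcl6 read 3.53 and 4.01 in knockout against 2.41 and 3.48 in wild-type males, and 1.15 and 3.93 against 0.39 and 2.48 in females, where the groups overlapped. Its place relative to the deleted part is unknown here and it therefore checks nothing, so "knockout" below follows the labels. Hepatocyte markers were present in every group: the summed level of 10 such genes lay between 4214 and 5005, all 10 above background in each group. By limma 0 of the 10 were called higher and 1 lower in each knockout comparison. Over all tested 6.02% were called higher and 4.56% lower in males, and 3.48% and 2.49% in females. Probe signals of different genes are not compared in level.

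The male comparison asked what the loss of Bcl6 in the liver does to these genes in males. Of the genes for the pore of complement, C6, C8a, C8b and C9 fell, and C8g did not. C9, which forms the ring of the pore, was 23.8-fold lower in knockout males, C8b was 21.9-fold lower, C6 was 15-fold lower and C8a was 13.9-fold lower (n = 2 arrays per group). The genes for factor VII, factor X, factor V and prothrombin rose, led by F7 at 3.92-fold. By limma with Benjamini-Hochberg adjustment over all 26510 tested, 13 of the 48 members passed an adjusted p of 0.05, 7 higher and 6 lower. Over all tested, 6.02% were called higher and 4.56% lower in this comparison (10.6% in either direction), and their median difference was -0.018, against 0.10 for the 48 members.

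The members of the terminal pathway give the clearest pattern, and the values of its 6 genes are shown array by array. C9 read 6.81 and 6.89 in wild-type males and 2.29 and 2.27 in knockout males, a difference of -4.57 ± 0.44 (SE, limma adjusted p = 0.00315). C8b read 5.75 and 5.86 against 1.45 and 1.25, a difference of -4.45 ± 0.46 (limma adjusted p = 0.00398). C8a read 5.22 and 5.23 against 1.58 and 1.28, a difference of -3.80 ± 0.45 (limma adjusted p = 0.00639). For each of the 3 genes the gap between the groups was more than 3 log2 units, while arrays of one male group lay within 0.30 of each other. C6, the protein that joins C5b to begin the pore, read 3.03 and 3.42 in wild-type males and -0.70 and -0.68 in knockout males. Its difference was -3.91 ± 0.22 (limma adjusted p = 0.000453), again with no overlap. These 4 falls stayed past the threshold whichever of the 8 arrays was dropped (highest adjusted p = 0.0433, for C8a). A second probe for C8b gave -4.05 and a second probe for C8a gave -4.07, both past the threshold (adjusted p = 0.00729 and 0.00389, limma over all kept probes).

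The other terminal genes did not pass the test. C8g, the gamma chain that is bound to C8 alpha, read 8.23 and 8.29 in wild-type males and 8.35 and 8.30 in knockout males, a difference of 0.06 ± 0.10 with a 95% interval from -0.17 to 0.30. The fall of C8a and C8b was not seen in the gene for the third chain, and the interval for C8g ends far above those of C8a (-4.90 to -2.69) and C8b (-5.57 to -3.33). Hc, which encodes C5, read 5.05 and 5.10 against 4.84 and 4.87, a difference of -0.22 ± 0.13 (limma adjusted p = 0.341). C7 was not among the 49 genes and is named here after its values were seen, because it completes the pore. It read -0.13 and -0.28 in wild-type males and -0.70 and -0.80 in knockout males, a difference of -0.55 ± 0.33 (limma adjusted p = 0.339). In the reference gene order C8a and C8b are neighbours on chromosome 4, with no protein-coding gene between them, and C6 and C7 lie on chromosome 15 with 1 such gene between them. C9 is also on chromosome 15, and C8g and Hc are on chromosome 2.

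**Figure D1:**
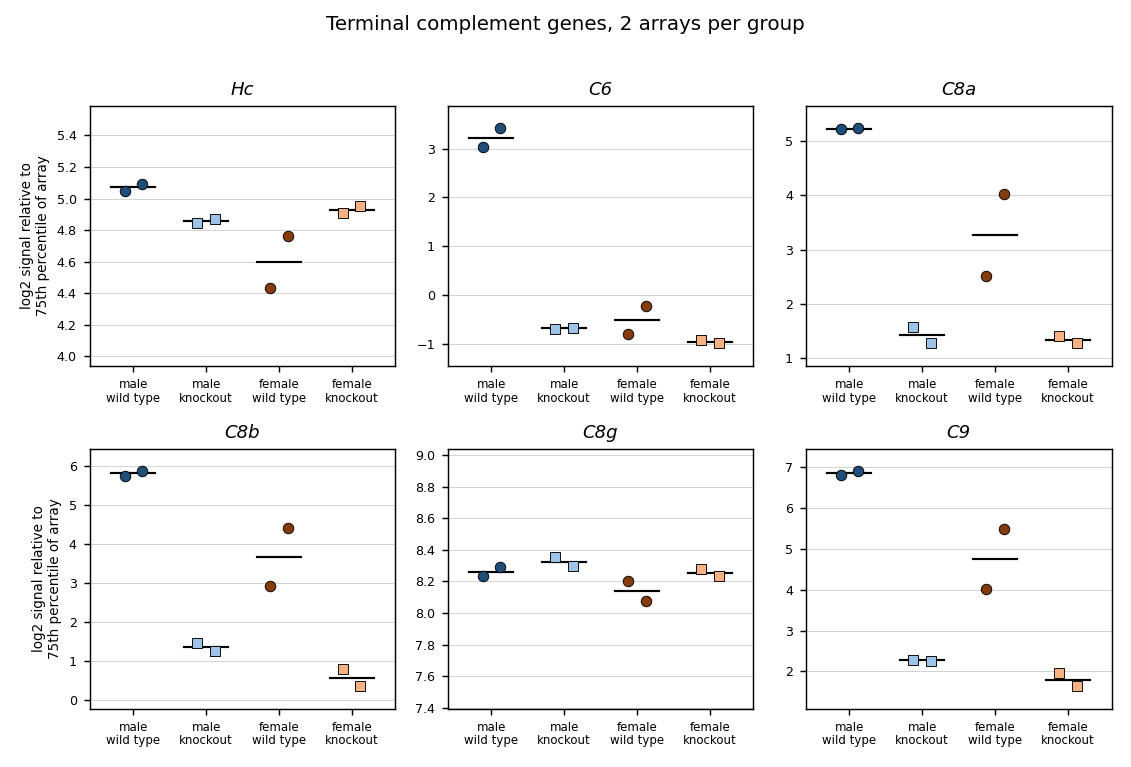
Log2 signal relative to the array's 75th percentile for the 6 terminal complement genes, 1 panel per gene with its own vertical scale; each point is 1 array and each bar the mean of the 2 arrays of a group. C6, C8a, C8b and C9 are lower in knockout males than in wild-type males (differences from -4.57 to -3.80), while C8g lies between 8.08 and 8.35 on all 8 arrays.

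The 250 bases before the start of the 4 genes that fell are shown because these genes moved together, as RefSeq gives them on GRCm38.p6. Of the 49 genes 39 had such an entry. Each was searched on both strands for TTCNNNGAA, the form bound by STAT factors and BCL6, for TTGCNNCAA, a form bound by C/EBP factors, and for the HNF1 motif. Capitals mark a match.
C6, chr15:4726960-4727209, plus strand: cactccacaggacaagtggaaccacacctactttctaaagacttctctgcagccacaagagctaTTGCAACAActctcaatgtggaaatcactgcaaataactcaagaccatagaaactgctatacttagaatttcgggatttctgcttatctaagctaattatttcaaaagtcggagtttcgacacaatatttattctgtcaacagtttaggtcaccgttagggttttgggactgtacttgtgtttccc
C8a, chr4:104876399-104876648, minus strand: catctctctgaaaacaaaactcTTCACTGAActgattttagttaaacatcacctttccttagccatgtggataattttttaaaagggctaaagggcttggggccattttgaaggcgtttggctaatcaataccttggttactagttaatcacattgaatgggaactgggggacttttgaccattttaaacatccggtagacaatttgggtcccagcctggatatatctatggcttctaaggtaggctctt
C8b, chr4:104766067-104766316, plus strand: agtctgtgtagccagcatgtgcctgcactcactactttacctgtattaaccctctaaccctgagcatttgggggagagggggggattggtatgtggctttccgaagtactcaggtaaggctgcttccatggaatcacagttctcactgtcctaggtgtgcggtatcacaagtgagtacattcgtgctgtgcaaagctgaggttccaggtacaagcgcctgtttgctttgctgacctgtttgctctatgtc
C9, chr15:6445096-6445345, plus strand: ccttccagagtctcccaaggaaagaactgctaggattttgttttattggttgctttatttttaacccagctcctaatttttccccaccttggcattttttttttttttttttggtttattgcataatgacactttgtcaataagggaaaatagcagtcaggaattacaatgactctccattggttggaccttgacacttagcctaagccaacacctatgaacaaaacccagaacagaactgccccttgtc
C8a held 1 match to TTCNNNGAA (TTCACTGAA, its first base 228 bases before the start), and C6 held 1 match to TTGCNNCAA (TTGCAACAA, 186 bases before). C8b and C9 held a match to none of the 3. Among the 39 members with an entry, 7 held TTCNNNGAA (C8a, Colec11, F9, Fga, Fgb, Masp2 and Pros1). Some members had more than 1 window, and by window it was 7 of 42. Of all 32851 RefSeq promoter windows of this length 7.02% held it. Whether the members differ from all windows was not tested. TTGCNNCAA was in 2 members (C6 and Fga), by window in 2 of 42, and in 1.74% of all windows. The full HNF1 string was in no member and in 3 of all 32851 windows (0.00913%). With so rare a string a match among the members was unlikely, and inexact HNF1 sites were not searched for. A match is a string of letters and not a measured binding site.

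Upstream in the cascade the changes in males were smaller and went both ways. C1s1, the protease of the classical pathway that cleaves C4 and C2, read 5.31 and 5.21 in wild-type males and 4.40 and 4.29 in knockout males. It fell by 0.91 ± 0.10 (limma adjusted p = 0.00483), with no overlap. C2, which supplies the protease of the classical and lectin C3 convertase, read 5.39 and 5.47 against 4.88 and 4.75. It fell by 0.62 ± 0.12 (limma adjusted p = 0.0262). Mbl2, a mannose-binding lectin, went the other way, from 7.35 and 7.47 to 8.51 and 8.38 (1.03 ± 0.20, limma adjusted p = 0.0284). Colec11, another collectin of the lectin pathway, went from 3.14 and 3.06 to 3.58 and 3.78 (0.58 ± 0.12, limma adjusted p = 0.034). Cfi, the protease that inactivates C3b and C4b, went from 7.0 and 6.82 to 7.63 and 7.70 (0.76 ± 0.10, limma adjusted p = 0.01). Knockout and wild-type males did not overlap for any of these 5 genes, which were picked by their call on the same arrays. Of the 24 measured complement members, called or not, 19 did not overlap in males. No such count was made over all genes tested, so the lack of overlap adds little.

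C3, the protein on which all routes converge, read 9.97 and 10.01 in wild-type males and 10.28 and 10.22 in knockout males, a difference of 0.26 ± 0.12 that did not pass (limma adjusted p = 0.247). The other members of the early steps did not pass either. Of the classical pathway, C1qa, C1qb, C1qc, C1ra and the inhibitor Serping1 lay between -0.36 and 0.17. Of the lectin pathway, Mbl1, Masp1 and Masp2 lay between -0.24 and 0.30, and of the convertase genes C4b, Cfb and Cfp lay between 0.04 and 0.30. C4bp, the cofactor that helps Cfi inactivate C4b, was at -0.37 ± 0.12 (limma adjusted p = 0.113). C1qa, C1qb and C1qc are made by macrophages rather than hepatocytes. Of 12 markers of macrophages and Kupffer cells, all above background in every group, 0 passed in either knockout comparison by limma (0 in males and 1 in females at an unadjusted p under 0.05). Over all tested 10.6% passed in males and 5.97% in females, so 0 of 12 says little. The summed level of the 12 markers was 87.4 to 93.0 in wild-type and 90.8 to 117 in knockout males. In females it was 100.9 to 101.3 in wild-type and 100.2 to 113 in knockout arrays.

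**Figure D2:**
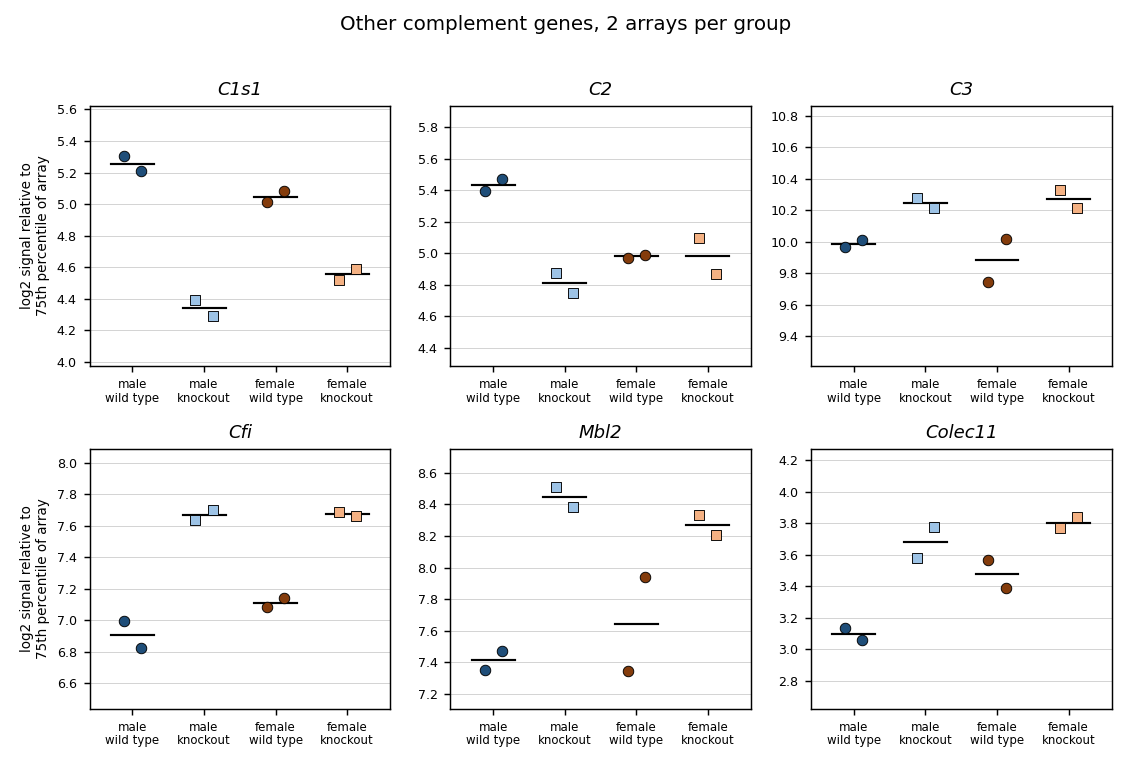
Log2 signal relative to the array's 75th percentile for C3 and the 5 earlier complement genes that passed the test in males; points are arrays, bars are means of 2 arrays, and each panel has its own vertical scale. C1s1 and C2 are lower and Cfi, Mbl2 and Colec11 higher in knockout than in wild-type males; C3 differs by 0.26.

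Coagulation genes that passed in males all rose. F7, the factor that starts clotting together with tissue factor, read 3.13 and 3.15 in wild-type males and 5.15 and 5.06 in knockout males, a difference of 1.97 ± 0.11 (limma adjusted p = 0.000411). F10, the protease that factor VII activates, read 7.33 and 7.44 against 8.30 and 8.26 (0.90 ± 0.10, limma adjusted p = 0.0045). F5, the cofactor of factor X, read 5.50 and 5.57 against 6.36 and 6.42 (0.86 ± 0.09, limma adjusted p = 0.00437). F2, prothrombin, read 8.43 and 8.47 against 8.94 and 8.97 (0.50 ± 0.09, limma adjusted p = 0.0213). Each of the 4 differences was larger than the spread of either group, and no array of one group reached into the other. Groups were also apart in this way for 18 of the 21 coagulation members, called or not. How often this held over all genes tested was not counted, so the lack of overlap is not read as a result. F7, F10 and F2 are made active by a vitamin K-dependent step. The other vitamin K-dependent members did not pass: F9 was at -0.04 ± 0.10, and Proc and Pros1, which restrain clotting, were at -0.16 ± 0.09 and -0.21 ± 0.18.

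F7 and F10 are neighbours on chromosome 8 with no protein-coding gene between them, followed by Proz, a further vitamin K-dependent gene. The bases before their starts are given because the pair rose in both sexes, and neither held a match to the 3 motifs.
F7, chr8:13025784-13026033, plus strand: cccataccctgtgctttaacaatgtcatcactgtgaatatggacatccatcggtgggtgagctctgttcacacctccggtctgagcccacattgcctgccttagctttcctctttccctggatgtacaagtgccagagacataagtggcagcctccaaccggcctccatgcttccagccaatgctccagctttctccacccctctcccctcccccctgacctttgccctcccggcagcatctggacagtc
F10, chr8:13037058-13037307, plus strand: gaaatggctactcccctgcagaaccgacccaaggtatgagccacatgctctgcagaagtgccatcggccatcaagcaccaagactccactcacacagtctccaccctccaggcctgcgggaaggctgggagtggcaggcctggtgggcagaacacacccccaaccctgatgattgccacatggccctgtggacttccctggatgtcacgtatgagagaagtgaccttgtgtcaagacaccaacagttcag
Proz, which was not among the 49 genes, read 2.13 and 2.21 in wild-type males and 2.59 and 2.63 in knockout males (0.44 ± 0.12, limma adjusted p = 0.0744). F11 and Klkb1, also adjacent on chromosome 8, were at 0.43 ± 0.20 and -0.12 ± 0.10 in males, and C1ra, adjacent to C1s1, was at -0.36 ± 0.14, none past the threshold.

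Fibrinogen did not pass in males. Fga read 5.20 and 5.24 in wild-type and 5.25 and 5.25 in knockout males (0.03 ± 0.25). Fgb read 9.39 and 9.38 against 9.67 and 9.58 (0.24 ± 0.25), and Fgg read 9.31 and 9.39 against 9.55 and 9.48 (0.17 ± 0.12). Their limma adjusted p lay between 0.431 and 0.959. The 2 probes for Fga had differences above 0 in both sexes but were unlike in size. For the dimmer one the male difference was 0.55 ± 0.18 (limma adjusted p = 0.118). Its female difference, which passed, was 0.96 ± 0.18 (limma adjusted p = 0.0379), against 0.33 ± 0.25 for the brighter one. No change is therefore claimed for Fga. The remaining coagulation members, also not past the threshold in males, were F13b (0.03), the inhibitors Serpinc1 (antithrombin, 0.42) and Serpind1 (heparin cofactor, 0.24), the fibrinolysis genes Plg (0.35), Serpinf2 (0.17) and Cpb2 (-0.03), and F12 (0.26), Kng1 (0.36) and Kng2 (0.43) of the contact system. Of the cystatin family, Fetub was at 0.42, Ahsg at 0.17 and Hrg at -0.13, and 0 of the 3 passed by limma (1 at an unadjusted p under 0.05).

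**Figure D3:**
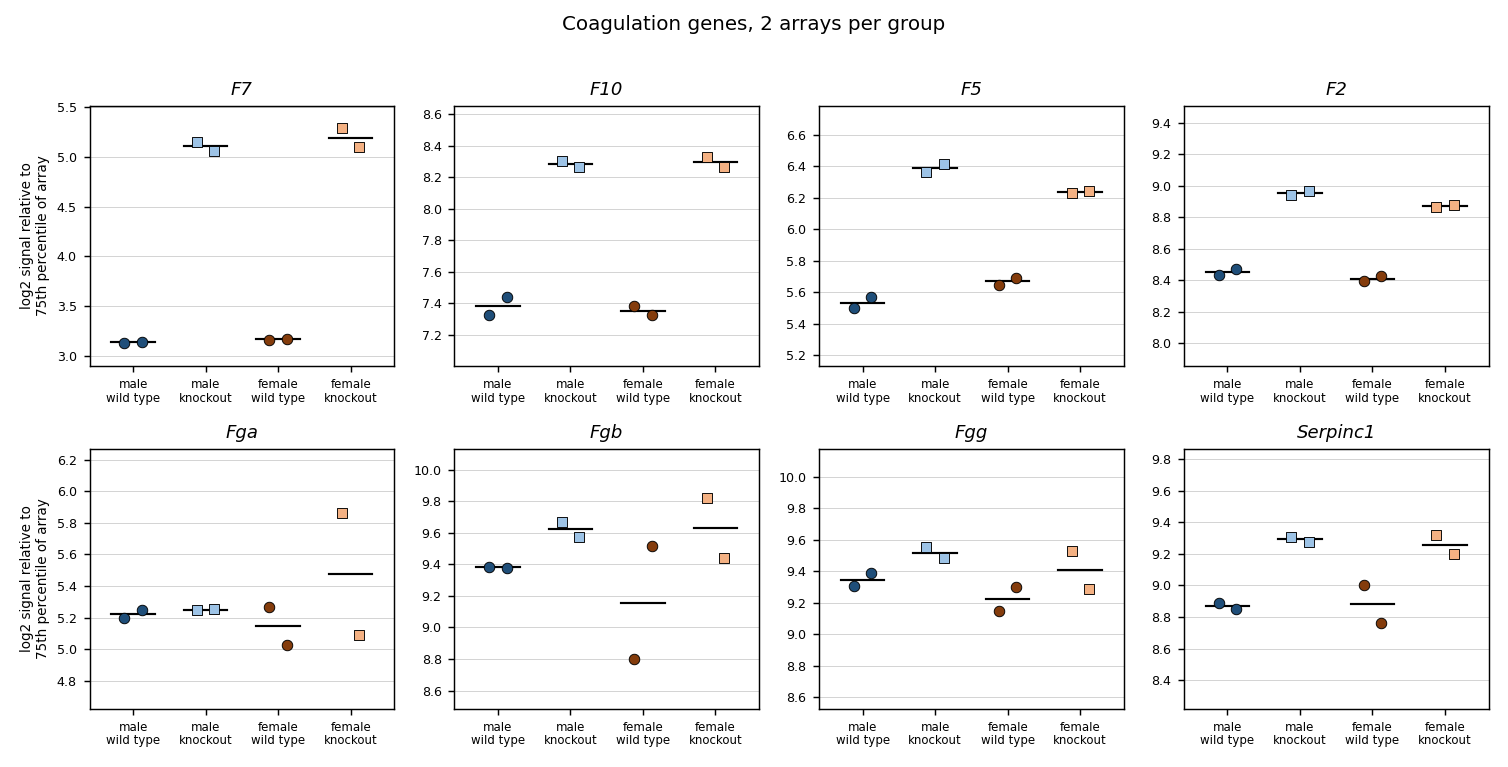
Log2 signal relative to the array's 75th percentile for 8 coagulation genes; points are arrays, bars are means of 2 arrays, and each panel has its own vertical scale. F7, F10, F5 and F2 are higher in knockout than in wild-type arrays in both sexes, with F7 1.97 higher in males and 2.02 in females. With the probes shown, the fibrinogen genes and Serpinc1 did not pass the test.

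Of the 13 calls in males, 8 (C6, C8a, C8b, C9, C1s1, F5, F7 and F10) held whichever array was left out. The others did not, and none changed direction. F2 and Mbl2 lost the call without any 1 of the 4 male arrays or either knockout female array (F2 0.48 to 0.52, highest adjusted p = 0.124; Mbl2 0.97 to 1.1, highest adjusted p = 0.134). Colec11 lost it without the same 6 arrays (0.48 to 0.68, highest adjusted p = 0.17) and in the fit blocked on replicate number (adjusted p = 0.0575). C2 lost it without any 1 of the 4 male arrays (-0.68 to -0.56, highest adjusted p = 0.141), and Cfi without male wild type 2 or either knockout male array (highest adjusted p = 0.0714). The count of 13 became 8 without male wild type 2, without male knockout 1 or without male knockout 2.

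The female comparison asked the same question in females. C8b was 8.51-fold lower and C9 7.71-fold lower in knockout females, C1s1 was 1.41-fold lower, and F7, F10, F5, Cfi and F2 were higher (4.06-fold, 1.92-fold, 1.48-fold, 1.48-fold and 1.38-fold). By limma 8 of the 48 members passed, 5 higher and 3 lower, against 3.48% higher and 2.49% lower over all tested (5.97% in either direction). The median difference was 0.21 over the 48 members and -0.00014 over all tested. All 8 also passed in males, with the same direction. The knockout comparisons of the sexes share no array, but both take the spread of a gene from 1 fit over all 8 arrays. Their p-values are therefore not independent.

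Wild-type females were unlike each other for C8a, C8b and C9. C9 read 4.01 and 5.48 in wild-type and 1.97 and 1.63 in knockout females (-2.95 ± 0.44, limma adjusted p = 0.02). C8b read 2.91 and 4.40 against 0.80 and 0.34 (-3.09 ± 0.46, limma adjusted p = 0.0196). C8a read 2.52 and 4.03 against 1.40 and 1.27 (-1.94 ± 0.45), which did not pass (limma adjusted p = 0.064). In all 3 genes female wild type 2 read about 1.5 above female wild type 1, and both lay above each knockout female array. Without female wild type 1 the differences were -3.68 for C9, -3.83 for C8b and -2.69 for C8a, and without female wild type 2 they were -2.21, -2.34 and -1.18. Each of these fits left 1 wild-type female array and so dropped the spread of that pair, and only the differences are given. C6 read -0.81 and -0.24 against -0.93 and -1.0, a difference of -0.44 ± 0.22 that did not pass (limma adjusted p = 0.269). C8g (8.20 and 8.08 against 8.28 and 8.23) and Hc (4.43 and 4.76 against 4.91 and 4.95) did not pass either.

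F7 read 3.16 and 3.18 in wild-type and 5.29 and 5.10 in knockout females (2.02 ± 0.11, limma adjusted p = 0.000776). F10 read 7.38 and 7.33 against 8.33 and 8.26 (0.94 ± 0.10, limma adjusted p = 0.00639). F5 went from 5.65 and 5.69 to 6.23 and 6.24 (0.57 ± 0.09, limma adjusted p = 0.0244), and F2 from 8.40 and 8.43 to 8.87 and 8.88 (0.46 ± 0.09, limma adjusted p = 0.0387). Cfi went from 7.08 and 7.14 to 7.69 and 7.66 (0.56 ± 0.10, limma adjusted p = 0.0348), and C1s1 from 5.01 and 5.09 to 4.52 and 4.59 (-0.49 ± 0.10, limma adjusted p = 0.0459). Knockout and wild-type females did not overlap for these 6 genes. The same held for 18 of the 24 complement and 14 of the 21 coagulation members, called or not. Its share over all genes tested was not counted, so the lack of overlap adds little. C2, Mbl2 and Colec11, called in males, were at 0.0035, 0.63 and 0.32 in females and did not pass, and C3 was at 0.39 ± 0.12 (9.74 and 10.02 against 10.33 and 10.22). Of the members not called in either sex, Masp1 (0.55 ± 0.12, limma adjusted p = 0.0554) and F11 (0.81 ± 0.20, limma adjusted p = 0.0723) came nearest in females.

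Most female calls rested on all arrays being present: F7 and F10 were called whichever of the 8 arrays was dropped. C8b and C9 were called in 3 of the 8, losing the call without male wild type 2 or any 1 of the 4 knockout arrays (highest adjusted p = 0.0884 and 0.0893). F5 was called only without male wild type 1 among the 8, and F2, Cfi and C1s1 in none of them, at highest adjusted p = 0.16 (F2), 0.158 (Cfi) and 0.197 (C1s1). In the fit blocked on replicate number 5 members passed instead of 8: F2 (adjusted p = 0.0613), Cfi (0.0598) and C1s1 (0.072) did not. Fitted on the female arrays alone, F7 was the only member called and F10 stood at adjusted p = 0.0562. With no filter on dim probes, which raised the number of tests, only F7 and F10 were called.

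**Figure D4:**
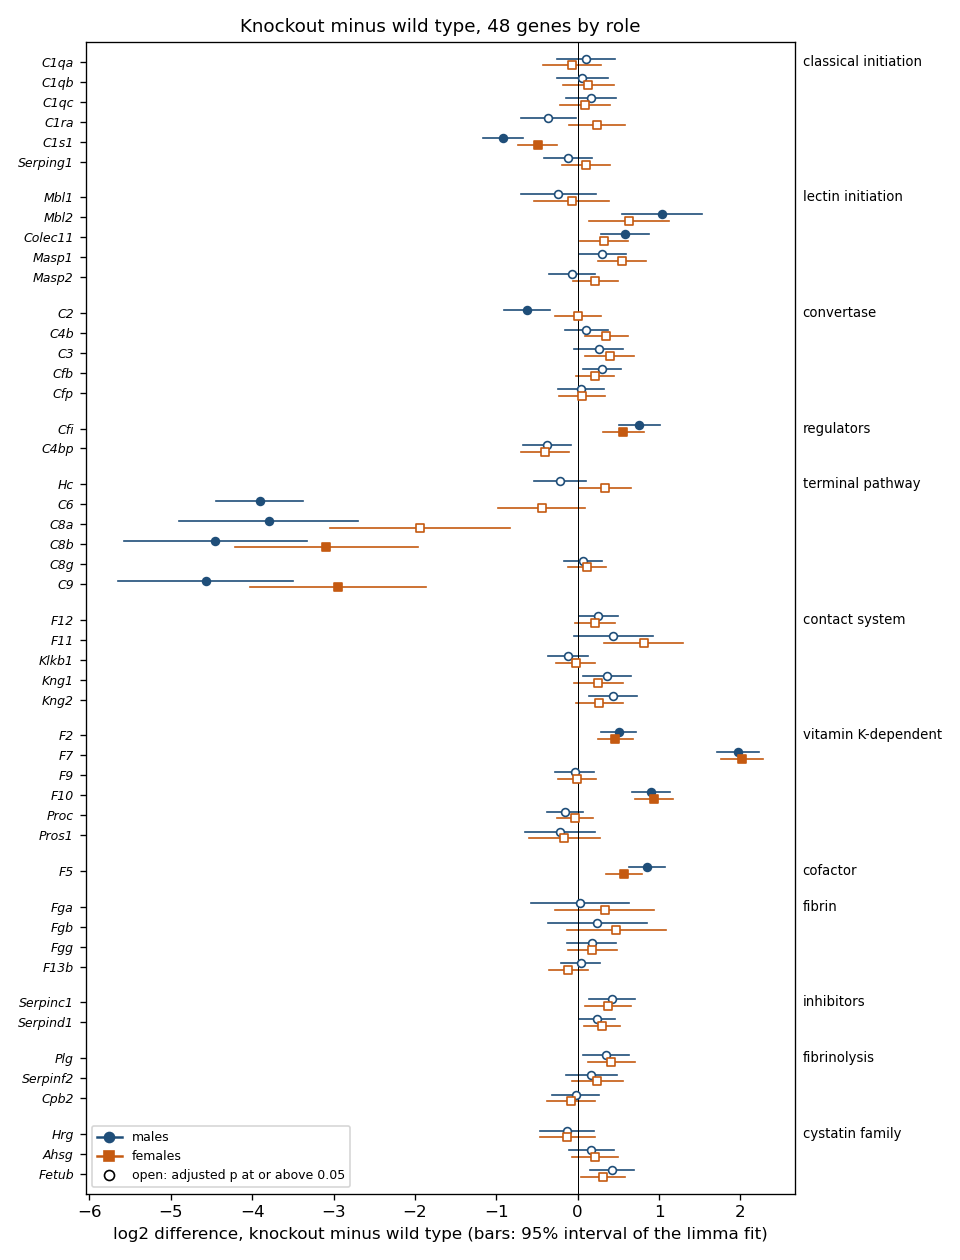
Log2 difference, knockout minus wild type, for the 48 members that passed the filter on dim probes, grouped by role, in males (circles) and females (squares); bars are 95% intervals of the limma fit and filled symbols passed an adjusted p of 0.05. C6, C8a, C8b and C9 lie far to the left in males, F7 lies near 2 in both sexes, and most other members lie within 1 of 0.

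The next comparison set males against females. In wild type C6 was 13.4-fold higher in males than in females (3.74 ± 0.22, limma adjusted p = 0.0021), and it was called whichever of the 8 arrays was dropped. It was the only member called of 48, against 0.543% called higher and 0.366% lower over all tested (0.909% in either direction). C8a, C8b and C9 were 1.96 ± 0.45, 2.15 ± 0.46 and 2.10 ± 0.44 higher in wild-type males, with no overlap between the sexes, but did not pass (limma adjusted p = 0.114, 0.0987 and 0.0951). Without female wild type 2, the array with the higher values, they stood at 2.71, 2.89 and 2.84. Without female wild type 1 they stood at 1.2, 1.40 and 1.37. Both fits left 1 wild-type female array with no spread of its own, so no call is drawn from them. With normexp background correction C8b and C9 passed, with 2.06 and 2.04. F7 and F10 were within 0.04 of each other between the sexes in wild type (-0.03 ± 0.11 and 0.03 ± 0.10). Females lay in row 1 and males in row 2 of the slide, and sex therefore cannot be told apart from slide row.

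In knockout liver 0 of the 48 members were called between the sexes by limma (2 at an unadjusted p under 0.05), and over all tested 0.0528% were called higher in males and 0.0189% lower (0.0717% in either direction). C6 differed by 0.28 ± 0.22, with a 95% interval from -0.25 to 0.81 that ends below the wild-type difference of 3.74. C8a differed by 0.09 ± 0.45, C8b by 0.79 ± 0.46 and C9 by 0.48 ± 0.44. Knockout males read lower than wild-type females for C8a, C8b and C9 on every array, and between the 2 wild-type female arrays for C6 (-0.70 and -0.68 against -0.81 and -0.24). Whether the knockout effect itself differed between the sexes was tested as an interaction. C6 fell more in males by -3.47 ± 0.31 (limma adjusted p = 0.0288), the only member called, where over all tested 0.0905% were called higher and 0.0868% lower (0.177% in either direction). Its call was lost, at the same direction, without male knockout 1 (adjusted p = 0.0516), male knockout 2 (0.0526) or female knockout 1 (0.0759). The interaction was -1.86 ± 0.64 for C8a, -1.36 ± 0.65 for C8b and -1.62 ± 0.63 for C9, none past the threshold with all arrays. Without female wild type 2 these 3 stood at -2.62, -2.11 and -2.36, with 1 wild-type female array left and the spread of that group not measured. For F7 and F10 the interaction was -0.05 ± 0.15 and -0.04 ± 0.14, with 95% intervals from -0.42 to 0.31 and from -0.38 to 0.29. The wild-type sex difference and the male knockout comparison share the wild-type male arrays, so the values of C6 in them are not independent.

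**Figure D5:**
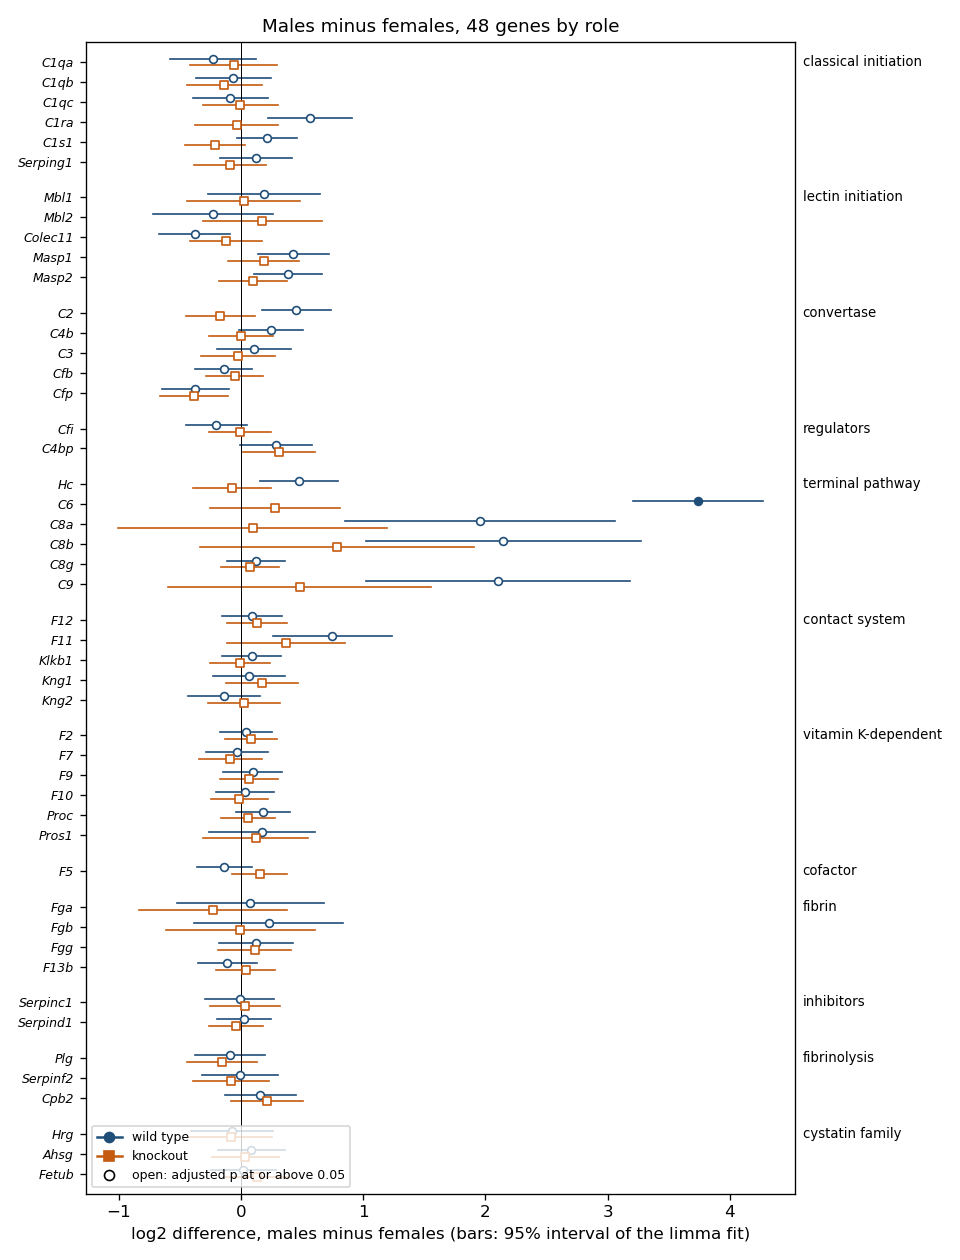
Log2 difference, males minus females, for the same 48 members in wild type (circles) and knockout (squares), with 95% intervals of the limma fit; filled symbols passed an adjusted p of 0.05. C6 at 3.74 in wild type is the only filled symbol, C8a, C8b and C9 lie near 2 in wild type, and the knockout values of these 4 genes lie between 0.09 and 0.79.

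By class, 3 of the 24 measured complement genes rose and 6 fell in males, with a median difference of -0.015, and 4 of 21 coagulation genes rose and 0 fell, with a median of 0.24. Over all tested 6.02% rose and 4.56% fell in males. In females 1 complement gene rose and 3 fell (median 0.11), and 4 coagulation genes rose and 0 fell (median 0.27), against 3.48% and 2.49% over all tested. The complement range in males ran from -4.57 to 1.03 and the coagulation range from -0.21 to 1.97. Between the sexes in wild type the medians were 0.20 for complement and 0.065 for coagulation, and in knockout -0.0075 and 0.037. No test was made of these medians, since the genes were chosen by name with earlier results known. The median of complement genes in males changed sign among the alternatives and fits without 1 array (-0.07 to 0.02), and that of coagulation genes in males did not (0.22 to 0.30).

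Other genes of both systems were followed as 2 further lists. Of 29 other complement genes 26 were tested. In males 4 rose (C5ar2, Itgam, Vtn and Cd55b) and 3 fell, among them C1s2 and Susd4. The background in males was 6.02% higher and 4.56% lower, and the median of the list was 0.051. C1s2, a near copy of C1s1 whose probe may bind both, fell by 0.98 ± 0.12 (limma adjusted p = 0.00666). C5ar2, a receptor for C5a, rose by 0.67 ± 0.11 and Itgam, the alpha chain of complement receptor 3 on myeloid cells, by 0.61 ± 0.12 (limma adjusted p = 0.0198 and 0.0273). In females, with 3.48% of all tested higher and 2.49% lower, 2 rose and 0 fell: Vtn, which encodes vitronectin, an inhibitor of the pore, by 0.62 ± 0.10, and the B cell complement receptor Cr2 by 0.70 ± 0.12 (limma adjusted p = 0.0225 and 0.03). Of 6 markers of B and plasma cells, 4 rose in males and 2 in females (Cd79b and Sdc1). Sdc1, which hepatocytes also express, made up 92.3% of their summed level. Without it the sum was 0.863 to 1.0 in wild-type and 1.6 in both knockout females. Their part in the Cr2 result was not tested.

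Of 38 other coagulation genes 29 were tested. In males 5 rose (Vwf, Fgl1, Serpina10, Anxa2 and Mcfd2) and 3 fell (Mug1, Mug2 and Serpine2), with a median of 0.22, and in females 4 rose (Vwf, Fgl1, Serpina10 and Proz) and 2 fell (Mug1 and Mug2), with a median of 0.21. Over all tested 6.02% were higher and 4.56% lower in males, and 3.48% and 2.49% in females. Mug1, which encodes the protease inhibitor murinoglobulin, read 9.23 and 9.30 in wild-type and 6.96 and 6.91 in knockout males, a fall of 2.33 ± 0.14, and fell by 2.17 ± 0.14 in females (limma adjusted p = 0.000638 and 0.0013). Mug2 fell by 2.80 ± 0.28 and 2.59 ± 0.28, but Mug1 and Mug2 are near copies and their probes may bind both. Vwf, which encodes von Willebrand factor and is made by endothelium, read 0.73 and 0.62 against 3.12 and 3.53 in males (2.65 ± 0.17, limma adjusted p = 0.000693) and rose by 1.15 ± 0.17 in females. Of 7 other endothelial markers, all above background, 2 rose in males (Stab2 and Lyve1) and 0 in females by limma (2 at an unadjusted p under 0.05). Their summed level without Vwf was 56.4 to 58.8 in wild-type and 75.5 to 78.8 in knockout males, and 68.3 to 74.4 against 76.9 to 79.7 in females. Their part in the Vwf result was not tested. Serpine2, an inhibitor of thrombin and plasmin, fell by 3.48 ± 0.32 in males (limma adjusted p = 0.00268) and stood at -0.91 ± 0.32 in females, which did not pass. Proz rose by 0.66 ± 0.12 in females (limma adjusted p = 0.0347).

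Transcription factors of hepatocytes known to act on promoters of this kind were followed as a list of 10, all tested. In males 3 fell, Cebpb (-1.1 ± 0.18), Nr1h4 (-0.73 ± 0.12) and Foxa1 (-2.15 ± 0.50), with limma adjusted p of 0.0182, 0.0194 and 0.0495, where 4.56% of all tested fell. In females 2 fell, Cebpb (-1.52 ± 0.18) and Nr1h4 (-1.08 ± 0.12), with limma adjusted p of 0.0108 and 0.009, where 2.49% of all tested fell. Cebpb read 5.10 and 4.91 in wild-type and 4.01 and 3.79 in knockout males, and 4.96 and 5.15 against 3.76 and 3.31 in females, with no overlap in either sex. Stat3, a mediator of interleukin-6 signalling, was at 0.50 ± 0.13 in males and 0.37 ± 0.13 in females and did not pass. Hnf4a was at -0.05 ± 0.23 and -0.35 ± 0.23. Whether these changes bear on the complement or coagulation genes was not tested.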

How the data were processed

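Whole-liver RNA was hybridised to 1-colour (Cy3) Agilent arrays, 1 per sample. The deposited files hold, as intensity values, a processed signal and the median spot and background signals of each spot, made with Agilent Feature Extraction 11.5.1.1, per the file headers (the submitters' processing notes name 9.1.3.1). The deposited log2 value table equalled the log2 processed signal minus 1 constant per array (6.99 to 7.30), within 0.01 for 100% of probes. Its scale and centring are thereby known, and no gene centring was found.

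Here, log2 processed signals were centred on each array's 75th percentile (signal 180 to 219). Between 55 and 139 spots per array marked as uneven or outliers were left out, and 0 were saturated. Spots of 1 probe were averaged. Probes (32994 of 56605) were named through RefSeq accessions of GRCm38.p6; the array grid is annotated on mm9, so coordinates are given only for RefSeq promoter windows. A probe was kept where some group had it well above background on both its arrays (33586, less 76 with a marked spot), and the brightest kept probe by its mean over the arrays stood for a gene. The model was 4 group means over all 8 arrays, fitted with limma 3.58.1 under R 4.3.3 (4 residual and 2.07 prior degrees of freedom; 26510 genes and unnamed transcripts), with Benjamini-Hochberg adjustment over all at 0.05. Errors are SE of the fit unless named otherwise. On data simulated for the male knockout comparison (26510 genes), 13 of 67 genes changed by 1 on the log2 scale, 53 of 67 changed by 2 and 61 of 66 changed by 4 were called, with 11 false calls. Far fewer genes were changed there than the 2803 called in the real male comparison. The adjustment was therefore stricter in the simulation, and these shares do not give the sensitivity in the real data. Sequences were searched under Python 3.11.15 (pandas 2.3.3) and plots drawn with matplotlib 3.10.9.

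The members and lists were chosen with earlier results of these data known. Values in every array are given, in the text or in a figure, for members past the threshold in any comparison, the terminal pathway, C3, F2 and fibrinogen. For C2, Mbl2, Colec11 and fibrinogen the female arrays are only in the figures. Of the 2 further pathway lists, the up to 4 genes with the smallest adjusted p per knockout comparison and the genes in counts of 5 or fewer are named, except 1 that is not reported here. Alternatives were normexp, quantile normalization, no or a stricter filter, averaging the probes of a gene, the replicate block, single contrasts, the deposited values, each array left out, and, added after seeing the data, a gene's other probes and marker sums without 1 gene. The number of arrays limits the precision.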

Additional observations from a re-analysis of the deposited data

Results flagged for a closer look

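The effect of the knockout on C6 differed between males and females. The male effect minus the female effect was -3.47 ± 0.31 on the log2 scale (limma interaction, adjusted p = 0.0288), with C6 lower in both knockout males than in both wild-type males. The female difference was -0.44, with both knockout female arrays below both wild-type female arrays. No other member met this test of the difference. Groups of 2 arrays are too small for a test of single outlying arrays.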

How the results depend on the processing

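The counts of members called moved as follows (13, 8, 1, 0 and 1 as reported for the knockout in males, the knockout in females, sex in wild type, sex in knockout and the interaction). With normexp 13 members passed in females and 3 between the sexes in wild type. With no filter on dim probes 2 passed in females and 0 in the interaction. Fitted on the female arrays alone, 1 passed. With single arrays left out the counts ran from 8 to 13, 2 to 6, 1 to 5, 0 to 0 and 0 to 4. The cause was not tested. Each fit without an array left its group with 1 array, which added nothing to the estimate of the spread. Of the 23 single calls, 11 were lost with no filter, 8 of 22 with only the groups compared, 4 with the replicate block and 1 with quantile normalization, and 0 changed direction.

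With the replicate number as a block 12, 5, 1, 0 and 1 members passed. Deviations of same-numbered arrays correlated between -0.0017 and 0.10 over 26510 genes, and no label ties the numbers to a shared animal or batch, so the arrays share only a number.

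The coagulation median between the sexes in wild type was -0.023 with quantile normalization, and the complement median of the interaction was -0.12 when probes of a gene were averaged. Without single arrays the complement median ran from -0.30 to -0.12 in the interaction and from 0.16 to 0.28 between the sexes in wild type, and the coagulation median from 0.14 to 0.40 in the female knockout and from -0.075 to 0.036 in the interaction.

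Over all genes, 2803, 1582, 241, 19 and 47 were called. These became 1228, 528, 91, 14 and 11 with no filter, 3209, 2639, 614, 9 and 74 with normexp, 25 in the interaction with the block, 394, 51 and 11 for females and for sex in wild type and knockout with only the groups compared, and 1 for sex in knockout with the stricter filter. Without single arrays they ran from 1079 to 2893, 564 to 1699, 76 to 1048, 11 to 218 and 79 to 526. With 2 arrays a group, changes near 1 on the log2 scale were often missed in the simulated data. Far fewer genes changed there than were called here, so the share missed in the real data is not known.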
